A study of Mus musculus with 4 samples.

Results

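NFIC peaks labelled as CpG island but outside the promoter class were taken from the merged NFIC ChIP-Seq peak list of mouse pancreas. A peak was a member when the deposited detailed annotation began with CpG and its main annotation was not promoter-TSS. This gave 538 of 15824 peaks, of which 354 were in introns and 184 were intergenic. All peaks of the list are 173 bp long. The study sequenced 3 libraries of NFIC-bound chromatin and 1 library of input DNA. All came from the pancreas of wild-type mice, with the strain given as mixed, and the deposited description gives an age of 8 to 12 weeks. The tissue was the whole organ, so peaks cannot be assigned to acinar, ductal or endocrine cells. The list holds no value for a single library, so the spread between replicates and the depth per library are unknown, and no comparison with the input was possible.

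NFIC belongs to the nuclear factor I (NFI) family, whose dimers bind a palindrome of TGGC and GCCA arms. CpG islands are GC-rich stretches that have kept their CpG dinucleotides and are mostly unmethylated. Many mark the promoters of genes. Others lie within or between genes and are called orphan islands, and many of these hold starts of unannotated or tissue-restricted transcripts. SP and KLF factors, which bind GGGCGG, are known for occupying such islands.

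The sequences on which the motif counts rest are shown first. The NFI full site was searched as TGGCNNNNNGCCA with at most 1 mismatch in the 8 fixed bases, and as an exact site with none. Sequences are from the RefSeq copy of GRCm38, the assembly of mm10, on the plus strand. The 5 members with the highest scores among those that held an exact site and lay outside annotated exons are given with that site in capitals.
*Bicral* chr17:46856740-46856912: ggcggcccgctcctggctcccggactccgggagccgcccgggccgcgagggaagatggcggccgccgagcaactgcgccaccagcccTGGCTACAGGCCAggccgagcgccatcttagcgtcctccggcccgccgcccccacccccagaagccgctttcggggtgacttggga
*Cic* chr7:25279083-25279255: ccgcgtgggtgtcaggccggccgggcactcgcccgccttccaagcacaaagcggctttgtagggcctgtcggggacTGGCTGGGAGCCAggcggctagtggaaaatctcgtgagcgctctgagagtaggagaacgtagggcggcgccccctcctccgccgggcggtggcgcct
*Gm13648* chr4:156077791-156077963: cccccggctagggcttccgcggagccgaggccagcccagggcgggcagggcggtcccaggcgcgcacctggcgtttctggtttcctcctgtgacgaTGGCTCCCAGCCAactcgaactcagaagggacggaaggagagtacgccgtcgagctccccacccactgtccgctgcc
*Scd2* chr19:44266894-44267066: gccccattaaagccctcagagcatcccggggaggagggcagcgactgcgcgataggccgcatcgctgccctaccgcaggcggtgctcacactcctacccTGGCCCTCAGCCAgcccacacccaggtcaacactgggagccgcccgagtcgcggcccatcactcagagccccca
*Nrp1* chr8:128357011-128357183: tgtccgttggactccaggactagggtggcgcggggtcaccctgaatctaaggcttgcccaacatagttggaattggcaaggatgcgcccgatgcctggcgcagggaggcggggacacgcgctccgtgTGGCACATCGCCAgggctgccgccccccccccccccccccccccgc

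The exact site lay 7 bp from the peak centre near *Bicral*, 4 bp near *Cic*, 16 bp near *Gm13648*, 19 bp near *Scd2* and 47 bp near *Nrp1*. *Cic* encodes a transcriptional repressor, *Scd2* a stearoyl-CoA desaturase and *Nrp1* a receptor for semaphorins and VEGF. In each of these peaks the palindrome was set in GC-rich sequence. The nearest gene of a peak, here and in what follows, is the assignment of the deposited annotation and not a proven target.

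The strongest members outside exons had imperfect sites. The peaks near *N4bp2* and *Zfp395* had the highest scores of all members, and are shown with their NFI full sites of 1 mismatch in capitals (a pair of peaks chosen after their values were seen).
*N4bp2* chr5:65764400-65764572: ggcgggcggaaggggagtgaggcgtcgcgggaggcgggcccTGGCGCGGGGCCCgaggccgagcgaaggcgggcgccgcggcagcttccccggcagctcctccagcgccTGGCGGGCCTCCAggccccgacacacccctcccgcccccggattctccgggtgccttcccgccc
*Zfp395* chr14:65343571-65343743: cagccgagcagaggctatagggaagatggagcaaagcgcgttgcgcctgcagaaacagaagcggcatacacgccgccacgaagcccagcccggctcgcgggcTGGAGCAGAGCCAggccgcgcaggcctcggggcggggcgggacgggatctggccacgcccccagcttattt

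The peak of *N4bp2* held 2 such sites, 39 bp and 29 bp from its centre, and the peak of *Zfp395* held 1, at 22 bp. For contrast, the 3 members with the highest scores, no NFI full site and no overlap with an exon are shown with the SP motif GGGCGG, on either strand, in capitals.
*Lncppara* chr15:85671126-85671298: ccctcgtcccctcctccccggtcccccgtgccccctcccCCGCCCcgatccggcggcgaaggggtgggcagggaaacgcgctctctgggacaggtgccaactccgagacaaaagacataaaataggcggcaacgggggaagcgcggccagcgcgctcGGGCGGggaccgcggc
*Gm14486* chr2:30677013-30677185: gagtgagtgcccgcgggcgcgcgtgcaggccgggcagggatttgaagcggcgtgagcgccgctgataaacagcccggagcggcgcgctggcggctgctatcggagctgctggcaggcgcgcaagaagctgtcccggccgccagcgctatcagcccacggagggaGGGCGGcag
*Foxo6* chr4:120282867-120283039: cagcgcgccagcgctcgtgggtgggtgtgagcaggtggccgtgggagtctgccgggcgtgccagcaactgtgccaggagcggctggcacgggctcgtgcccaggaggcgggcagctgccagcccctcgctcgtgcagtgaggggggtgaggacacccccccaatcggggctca

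The peak near *Lncppara* held 2 SP motifs and the peak near *Gm14486* held 1, whereas the peak near *Foxo6*, a forkhead factor gene, held neither motif. Their scores were 14.9, 14.7 and 14.5.

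The members had the base composition of CpG islands, which the choice of members fixed. In 200 bp around the centre the median GC content was 70% (quartiles 66% and 74.5%) and the median ratio of observed to expected CpG was 0.81. Corresponding medians of the other intron and intergenic peaks were 51.5% and 0.208. An island scan of the sequence around the peaks, with a length over 200 bp, GC content over 0.5 and observed/expected ratio over 0.6, placed 533 of the 538 members on an island. Those islands had a median length of 740 bp (lowest 203 bp, highest 5076 bp) and a median of 82 CpG dinucleotides. Islands of intergenic members were shorter, with a median of 592 bp (95% interval 507 to 649), than those of intron members, at 832 bp (95% interval 773 to 898). Members lay all along their islands: with 0 at its lower and 1 at its upper coordinate, the centre stood at a median of 0.477 with quartiles of 0.216 and 0.736. Centres outside their island were set to 0 or 1. The position was not turned to the strand of the gene, so it does not show which end of an island faces the TSS.

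The deposited detailed annotation labelled 0 of the 3270 promoter-TSS peaks as CpG. Promoter-TSS peaks were therefore compared through the same scan, which put 2360 of them on an island. These promoter island peaks and the 10756 other intron and intergenic peaks are the comparison classes below. By the scan, 173 of the latter (1.61%) were also on an island. So were 465 of the 1260 peaks in exons, untranslated regions, transcript ends and non-coding transcripts. The deposited annotation labels none of these as CpG, so the members are not all island peaks outside promoters. Intervals are 95% Wilson intervals of shares, Newcombe intervals of differences between disjoint classes, and order-statistic intervals of medians. They cover counting error only, since peaks are not replicates.

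With promoters excluded, many members lay just past a transcription start site (TSS). By the deposited distance, 264 of 538 (49.1%, 44.9 to 53.3%) were in an intron within 1000 bp downstream of the nearest TSS. Such a distance was found in 12% of all peaks, 28.9% of promoter island peaks and 3.24% of other intron and intergenic peaks. Of the members, 311 of the 354 in introns (87.9%) were in intron 1. Intron 1 held 2499 of the 6100 other intron peaks (41%). The choice of members fixed that none lay between 1000 bp upstream and 100 bp downstream of the nearest TSS, the limits of the promoter class. It also bears on the contrast of 49.1% with the 28.9% of promoter island peaks. Some promoter-TSS peaks lay outside these limits, as 125 of the 2360 on an island (5.3%) were more than 100 bp past the nearest TSS. The nearest member downstream of a TSS was at 104 bp, in *Tab1* with a score of 4.58, and the nearest upstream at -1007 bp, near *Pkn3* with a score of 5.38. Between 250 and 500 bp downstream lay 120 members, between 500 and 1000 bp 90, and between 100 and 250 bp 54. Of the intergenic members, 72 of 184 were over 10000 bp upstream and 31 over 10000 bp downstream of the nearest TSS.

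**Figure D1:**
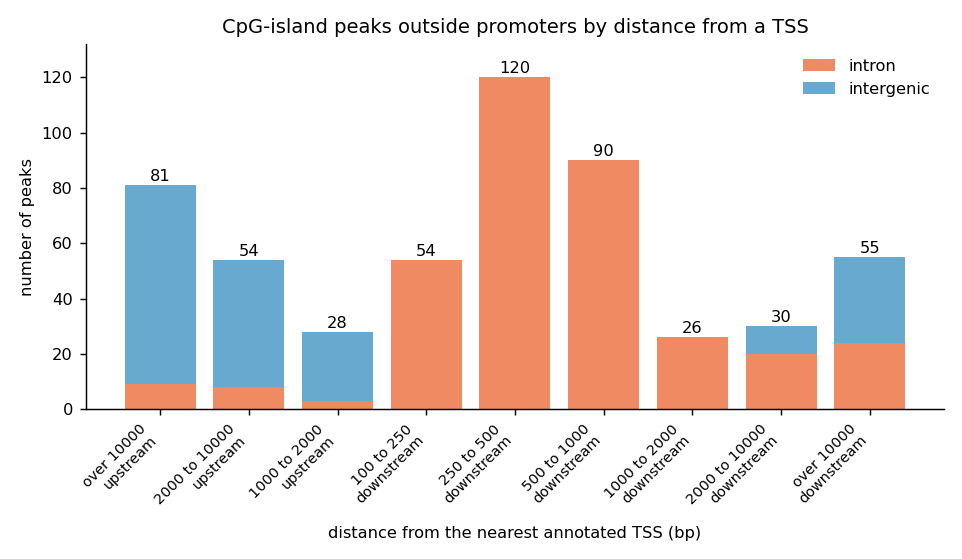
Number of CpG-island peaks outside promoters (vertical axis) by deposited distance from the nearest annotated TSS (horizontal axis, bp), with intron peaks in orange and intergenic peaks in blue. The tallest bar is the 120 intron peaks from 250 to 500 bp downstream, and intergenic peaks fill most of the 81 peaks over 10000 bp upstream.

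The TSS of the deposited annotation was not the only one in reach. A TSS of any RefSeq transcript lay within 1000 bp of 379 members (70.4%, 66.5 to 74.1%), against 32.4% of all peaks. With curated RefSeq transcripts alone the count was 302 (56.1%), and with GENCODE M21 it was 386 (71.7%). Each of these counts includes all 264 intron members within 1000 bp past the deposited TSS. Of the 90 other intron members, 35 (38.9%) had a RefSeq TSS within 1000 bp, against 10 (11.1%) with curated transcripts alone. Of the 6100 intron peaks that were not members, at any distance from the deposited TSS, 10.6% had a RefSeq TSS as near and 6.07% a curated one. Among intergenic members, 80 of 184 (43.5%) had a RefSeq TSS within 1000 bp, against 28 (15.2%) with curated transcripts alone. Other intergenic peaks had a RefSeq TSS as near in 7.67%, a difference of 35.8 points (28.8 to 43.1). RefSeq and GENCODE together left 118 members (21.9%) with no TSS within 1000 bp, against 84.2% of other intron and intergenic peaks. Of these members, 90 were intergenic (48.9% of that class, against 88.3% of other intergenic peaks). The remaining 28 were intron peaks (7.91% of that class, against 81.1% of other intron peaks).

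Single members show what this means for a stated distance. The member nearest to *Hes1*, the gene of a Notch-induced repressor, was intergenic and 5073 bp downstream of its TSS, but 8 bp from a RefSeq TSS. That start was not a curated one, and the nearest GENCODE TSS was 4092 bp away. The member farthest from its gene was assigned to *Naaladl2* at 359962 bp upstream, yet 181 bp from a RefSeq TSS and 100 bp from a GENCODE TSS. For *Hpcal1*, which encodes a neuronal calcium sensor, the deposited distance was 191024 bp and a curated RefSeq TSS lay at 40 bp. The member of *Rps24*, a ribosomal protein gene, was 288508 bp downstream and 1817 bp from the nearest RefSeq TSS. The member in intron 4 of *Arid1b*, a subunit of the BAF chromatin remodeller, was 194876 bp from the deposited TSS and 34334 bp from any RefSeq TSS. The members of *Hes1*, *Naaladl2* and *Hpcal1* thus had a RefSeq TSS within 1000 bp, which was curated for *Hpcal1* only. The members described for *Rps24* and *Arid1b* had none in RefSeq. The remaining member of the 5 farthest was the weaker of a pair in intron 6 of *4930467E23Rik*, at 250413 bp from the deposited TSS and 33852 bp from any RefSeq TSS.

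The score of the deposited list, whose scale the sources do not name, ranged from 3.39 to 30.9 among members with a median of 6.57. Of the members, 274 (50.9%, 46.7 to 55.1%) were in the upper 2 score quartiles of the list, against 51.6% of all peaks. Intergenic members had a median score of 7.37 (6.57 to 7.77), and intron members one of 6.17 (5.78 to 6.57). In the upper 2 quartiles were 114 of 184 intergenic members (62%) and 160 of 354 intron members (45.2%), a difference of 16.8 points (7.88 to 25.2). Intergenic members also exceeded other intergenic peaks, with 50.5% in those quartiles, by 11.5 points (4.15 to 18.3). Intron members were below other intron peaks, with 54.2% (difference -8.98 points, -14.2 to -3.63). Members thus matched the list as a whole, but their intergenic and intron parts lay on opposite sides of it. Of promoter island peaks, 45.4% were in the upper 2 quartiles, and members were 5.51 points above them (0.833 to 10.2). Intron members within 1000 bp past the TSS, at 44.3%, were like promoter island peaks (difference -1.11 points, -7.31 to 5.25). The share of members with a focus ratio (the fraction of a peak's tags near its centre) of at least the list's median was 36.1%, against 50.8% of all peaks and 55.7% of other intron and intergenic peaks (difference -19.6 points, -23.7 to -15.4). Promoter island peaks had a like share of 35.7% (difference 0.339 points, -4.06 to 4.9).

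**Figure D2:**
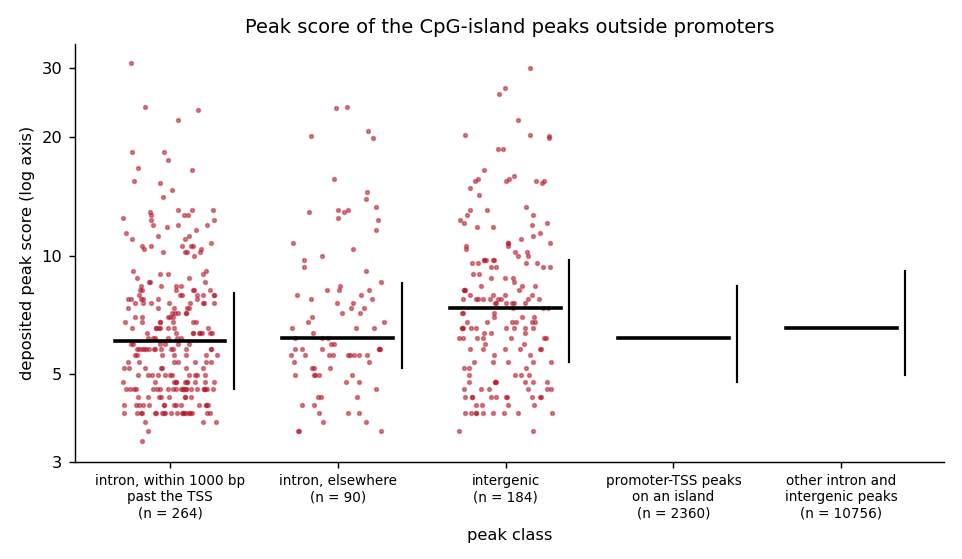
Deposited peak score (vertical axis, log scale) of each CpG-island peak outside promoters (red points) in 3 position classes, with the median (thick line) and quartiles (thin vertical line) of each class and of promoter-TSS peaks on an island and other intron and intergenic peaks. The intergenic members have the highest median, 7.37, and the 3 classes overlap over most of their range.

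The 10 members with the highest scores, from 22.1 to 30.9, comprised 6 intron and 4 intergenic peaks, and 10 of 10 held an NFI full site. The first was in intron 1 of *N4bp2*, 965 bp past its TSS, with a score of 30.9. The second, near *Zfp395*, a zinc finger gene, scored 29.9 and lay 15019 bp upstream. Next were *Egr1*, an immediate-early transcription factor gene, at 26.7, and *Xirp1*, which encodes an actin-binding protein of striated muscle, at 25.7. The *Xirp1* peak, at 12378 bp past the TSS, held an exact NFI site. So did the peak of *Snrnp35*, a gene of the minor spliceosome, with a score of 23.9 in its intron 1 at 119 bp. A peak in *4930467E23Rik* had the same score. It lay at chr8:19784571-19784743 and shared 64.9% of its 20-base words with the member near *6820431F20Rik*, which scored 20.1, so reads of these 2 members may come from either copy. The list of 10 closed with *Pnrc1*, a nuclear receptor coactivator gene, at 23.7, *4632428C04Rik* at 23.5, *Hes1* at 22.1 and *Cblb*, a ubiquitin ligase gene, at 22.1. The *Cblb* peak held 3 NFI full sites.

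An NFI full site lay within 200 bp around the centre of 243 members (45.2%, 41 to 49.4%), against 51.8% of all peaks. The share was 30.5% in promoter island peaks and 56.7% in other intron and intergenic peaks. Members were 14.7 points above the former (10.1 to 19.3) and differed from the latter by -11.5 points (-15.8 to -7.22). Exact sites were present in 38 members (7.06%), against 13.4% of all peaks, 3.09% of promoter island peaks and 16.3% of other intron and intergenic peaks. The difference from promoter island peaks was also present in the members within 1000 bp past the TSS, where 43.9% had a full site, 13.4 points more (7.28 to 19.7). By position, the share was 42.9% in intergenic and 46.3% in intron members, and the interval of their difference (-3.39 points, -12.1 to 5.47) holds 0. It was 53.3% in the 90 intron members away from the TSS.

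NFI sites sat at the peak centres and were not spread over the islands. Members with a full site had the nearest one at a median of 26 bp from the centre (quartiles 12.5 and 48 bp). In the 533 members on an island, the central 200 bp held 2.67 full sites per kb (2.37 to 3, exact Poisson interval). The same islands over 200 bp from the centre held 0.637 per kb (0.551 to 0.732), and the bases between these parts are in neither density. Promoter island peaks had 1.75 per kb (1.63 to 1.87) at the centre and 0.661 per kb (0.617 to 0.708) in the island over 200 bp from it. The 2 classes of islands thus had like site densities away from the peak and unlike densities under it. In windows of 200 bp placed 800 to 1000 bp from the centre on either side, 7.62% and 8.36% of members had a full site.

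**Figure D3:**
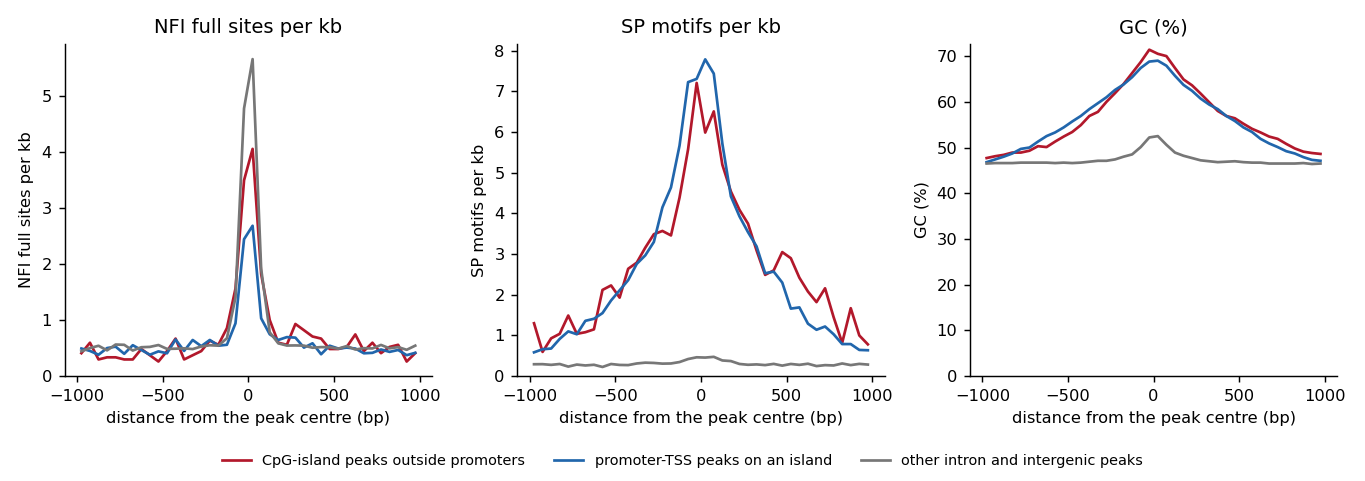
NFI full sites per kb, SP motifs per kb and GC content (%) in bins of 50 bp (vertical axes) by distance from the peak centre (horizontal axes, bp), for CpG-island peaks outside promoters (red), promoter-TSS peaks on an island (blue) and other intron and intergenic peaks (grey). In members the NFI density rises to 4.05 per kb in the bin next to the centre and falls to 0.855 and 1 per kb at 100 to 150 bp on either side, while SP motifs and GC content fall off more gradually.

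The presence of an NFI site went with the score more steeply in members and promoter island peaks than in other intron and intergenic peaks. In the highest score quartile of the list (score of 9.16 and over), 98 of 128 members had a full site (76.6%, 68.5 to 83.1%). The shares were 43.8% and 40.8% in the middle quartiles, and 20.9% (14.9 to 28.5%) in the lowest quartile, with 28 of 134 members. The difference between the highest and lowest quartile was 55.7 points (44.6 to 64.5). It was 43.1 points (37.7 to 48.2) in promoter island peaks and 17.7 points (15.1 to 20.3) in other intron and intergenic peaks, where 51% of the lowest quartile still had a site. The members' difference exceeded that of other intron and intergenic peaks by 38 points (26.6 to 47.2), and that of promoter island peaks by 12.5 points (0.342 to 22.9). Members differed from the other intron and intergenic peaks by -30.1 points (-36.4 to -22.2) in the lowest quartile, and were 7.92 points above them in the highest, with an interval of -0.3 to 14.6 that holds 0. From the highest quartile to the lowest, members exceeded promoter island peaks by 16.3 (7.24 to 24.1), 11.1 (2.35 to 20), 22 (13.4 to 31) and 3.78 points (-3.06 to 11.9). The interval of the lowest quartile holds 0.

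**Figure D4:**
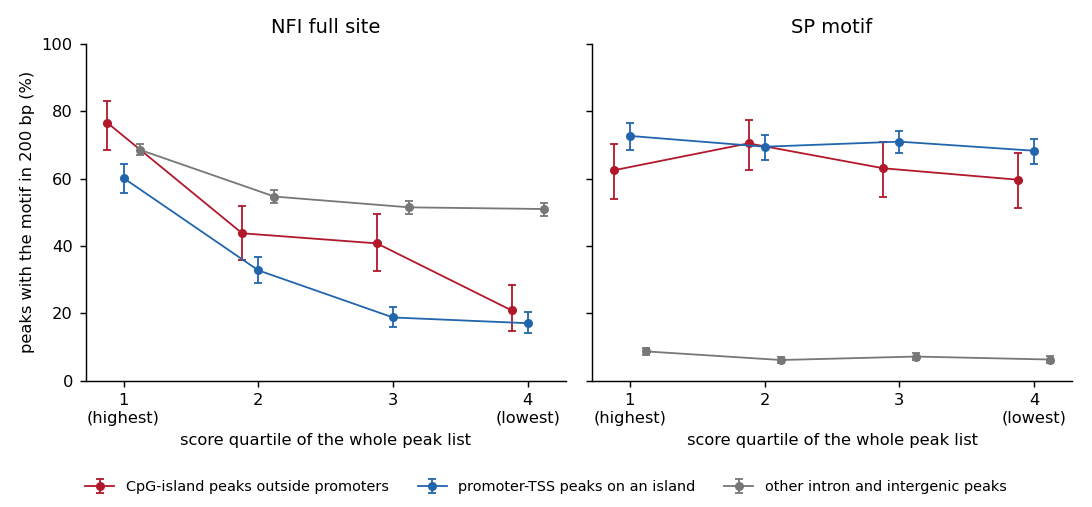
Share of peaks (vertical axes, %) with an NFI full site (left) and with an SP motif (right) in 200 bp around the centre, by score quartile of the whole list (horizontal axes), for CpG-island peaks outside promoters (red), promoter-TSS peaks on an island (blue) and other intron and intergenic peaks (grey), with 95% Wilson intervals. The share of members with an NFI site falls from 76.6% to 20.9%, and their SP share stays between 59.7% and 70.5%.

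The SP motif showed no such relation. It was present in 345 members (64.1%, 60 to 68.1%), against 21.1% of all peaks, 70.3% of promoter island peaks and 7.12% of other intron and intergenic peaks. Its letters are those of GC-rich sequence, so a high share on islands follows in part from the choice of members. By score quartile the share was 62.5%, 70.5%, 63.1% and 59.7% from highest to lowest, and the difference between the ends was 2.8 points (-8.92 to 14.4). On the islands of members, SP motifs numbered 6.19 per kb in the central 200 bp (5.73 to 6.68). Over 200 bp from the centre they numbered 5.68 per kb (5.41 to 5.95). Both motifs were present in 146 members (27.1%), against 8.06% of all peaks and 21% of promoter island peaks. Neither of these nor the single NFI arm TTGGCA was found in 77 members (14.3%), against 21.2% of all peaks.

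Other motifs separated members from promoter island peaks. CCAAT, the letters bound by NF-Y, was in 12.8% of members and 24.2% of promoter island peaks (difference -11.4 points, -14.5 to -7.89), with 24.7% in all peaks. The ETS motif CCGGAAG was in 6.13% and 13.6% (difference -7.47 points, -9.72 to -4.77), with 3.55% in all peaks. The E-box CAGCTG, which the acinar factors PTF1A and MIST1 can bind, was in 13.6% of members, 9.75% of promoter island peaks (difference 3.82 points, 0.899 to 7.17) and 21.4% of all peaks. CTCF's CCANNAGNNGGC was in 5.2% of members, 3.31% of promoter island peaks (difference 1.9 points, 0.129 to 4.21) and 5.21% of all peaks. The E-box and CTCF differences were not seen in the members within 1000 bp past the TSS. There the E-box was in 9.85% (difference from promoter island peaks 0.103 points, -3.19 to 4.44) and the CTCF motif in 3.03% (-0.275 points, -1.96 to 2.63). In intergenic members the shares were 17.9% and 7.61%. Within members, CCAAT was in 18 of 90 intron peaks away from the TSS (20%) and in 27 of 264 within 1000 bp past it (10.2%), a difference of 9.77 points (1.62 to 19.7). The last letters of CCAAT on the opposite strand can overlap an NFI arm, as can TTGGCA. For GATA factors, AGATAA was in 1.12% of members and 8.78% of all peaks, TGTTTAC for FOX factors in 1.86% and 3.97%, and CAAGGTCA for NR5A2 in 0.558% and 2.03%. These AT-containing words are rarer in GC-rich sequence, and no adjustment for composition was made. CRE TGACGTCA and NRF1 GCGCATGCGC were each in 4 members (0.743%), against 0.543% and 0.329% of all peaks. The HNF1 motif GTTAATNATTAAC, with at most 1 mismatch, was in 0 of 538 members, which allows a share of up to 0.558% (a count of 0 taken to allow 3), and in 0.278% of all peaks.

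**Figure D5:**
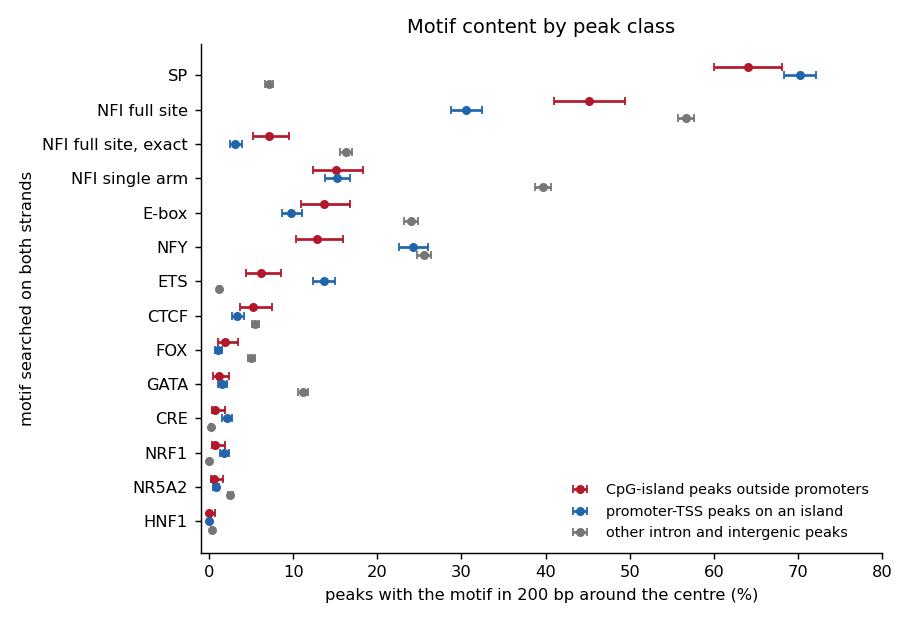
Share of peaks (horizontal axis, %) with each of the motifs searched on both strands (vertical axis) in 200 bp around the centre, with 95% Wilson intervals, for CpG-island peaks outside promoters (red), promoter-TSS peaks on an island (blue) and other intron and intergenic peaks (grey). Members lie between the other classes for the NFI full site, at 45.2%, and below both for NFY, at 12.8%.

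The members were assigned to 517 genes, of which 501 had 1 member, 15 had 2 and only *Bcor* had more. Protein-coding genes took 496 of 538 assignments (92.2%) and non-coding RNA genes 39 (7.25%). Non-coding RNA genes took 15.2% of other intron and intergenic peaks and 4.24% of promoter island peaks. Among intergenic members they took 13%, against 18.3% of other intergenic peaks (difference -5.3 points, -9.57 to 0.436, which holds 0). Among intron members they took 4.24%, against 12.8% of other intron peaks (difference -8.6 points, -10.5 to -5.84). A promoter-TSS peak was also present at 73 of the 517 genes (14.1%). Over all genes of the list it was 3185 of 9086 (35.1%). No comparison of the 2 shares is drawn, since many of those genes are listed for their promoter-TSS peak alone. For 226 genes (43.7%) members were the only peaks. This is a description only, since a like share over all genes of the list was not computed. Another peak lay within 1000 bp of 51 members (9.48%), against 5.28% of all peaks and 7.37% of promoter island peaks (difference from the latter 2.11 points, -0.361 to 5.05). Of these 51, 39 were intron members within 1000 bp past the TSS (14.8% of that class), and the share was 3.33% in other intron and 4.89% in intergenic members. For 36 of the members (6.69%) a promoter-TSS peak was as near.

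*Bcor*, the gene of a corepressor that is part of a variant Polycomb complex, lies on the X chromosome and had 7 members among its 22 peaks. Their scores ran from 4.38 to 9.96, and 6 of 7 held an NFI full site. Of these, 3 shared 1 island of 5076 bp, chrX:12086983-12092058, where they were 1398 and 1480 bp apart. Chromosome X held 12 members, or 7.02% of its 171 peaks (3.4% over all chromosomes). Without the peaks nearest to *Bcor* it held 5 of 149 (3.36%). The single peak of chromosome Y was a member.

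Members were 3.4% of all peaks, and their counts at genes of the acinar programme were too small to set apart from that share. They were 0 of the 31 peaks at digestive enzyme genes, which allows a share of up to 9.68% (3 of 31), and 2 of 47 (4.26%) at acinar regulators. The latter were at -13329 bp from the TSS of *Ptf1a*, the core factor of acinar cells, with a score of 5.78, and at -5463 bp from that of *Mecom*, a zinc finger factor gene, with a score of 5.38. Neither held an NFI full site. The *Ptf1a* member was 84 bp from a RefSeq TSS that was not curated, and 351 bp from a GENCODE TSS. Genes of the unfolded protein response and ER stress had 2 of 47, in intron 1 of *Ern1*, the gene of the ER sensor IRE1α, with a score of 8.17, and in intron 1 of *Pdia4*, a disulfide isomerase gene, with a score of 5.18. Nuclear receptors had 2 of 95, both at the glucocorticoid receptor gene *Nr3c1*, with scores of 7.17 and 6.97. Neither list had a member with an NFI full site.

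Developmental transcription factors held the most members, 15 of 195 peaks (7.69%, against 3.4% of all peaks) at 15 genes, and 7 of these had an NFI full site. The highest scores in this list were those of *Hes1* at 22.1, *Foxo6* at 14.5, *Foxp4*, a forkhead repressor gene, at 11.8, *Sox17*, an endoderm factor gene, at 7.77 and *Lhx1*, a LIM homeobox gene, at 7.57. The *Sox17* member was 74444 bp upstream and held an exact NFI site. KLF and SP factors had 2 of 46, *Klf15* at 8.37 and *Klf4* at 7.17, the second 118975 bp upstream with an NFI full site. Imprinted genes had 2 of 36, the growth regulators *Grb10* and *Cdkn1c*, both at 4.98, and ribosomal protein genes 1 of 30, the *Rps24* member described above, at 7.77. Shares at these lists rest on 0 to 15 members and are given as descriptions.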

How the data were processed

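Sequenced were 3 NFIC ChIP libraries and 1 input library of mouse pancreas. The authors deposited 1 merged, annotated peak list on mm10. The submitters' processing notes name BWA, Picard and MACS2. A methods paragraph on downloaded data names RUbioSeq+ (alignment, peak calling) and HOMER (merging, peak calling, annotation), and the steps for these libraries are not described apart. Versions and thresholds are not given in the sources used here. The score of each peak is on a scale the authors do not name, and the focus ratio is a fraction as the authors deposited it. The list has 0 columns of a single sample, so merging may hide differences between libraries, and a collapsed duplicate or repeat cannot be seen. In the detailed annotation, CpG is a label of intron and intergenic peaks only.

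Sequence was read from GRCm38.p6 (RefSeq), in windows of 200 bp around the peak centre. TSSs came from RefSeq and GENCODE M21. For 446 of 538 members the deposited distance was within 5 bp of that to the nearest curated RefSeq TSS. Islands were scanned in 5000 bp to either side with +17 per CpG and -1 per other base. Promoter-TSS peaks on a scanned island replaced the planned class of CpG promoter peaks, a choice made after the data were seen. The difference between quartile differences combined their Newcombe intervals by squares. Motif and island searches and intervals were tested on simulated data.

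The members, the motifs and the 8 gene lists were chosen with earlier results of these data known. Genes named are the nearest genes of the 10 members with the highest score and of the 5 farthest from a TSS, those with 3 or more members, and up to 5 per gene list by score. *Tab1*, *Pkn3*, *6820431F20Rik* and the genes of the printed sequences are named besides. Alternatives varied the score quartiles kept, merging of peaks within 500 bp, the promoter limit, mismatches, window and annotation. Python 3.11.15, numpy 2.4.6, pandas 2.3.3, scipy 1.17.1, numba 0.67.0 and matplotlib 3.10.9 were used.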

Additional observations from a re-analysis of the deposited data

How the results depend on the processing

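Of the 34 alternatives run, 22 kept the value within its interval, or the count within 1.5 times. The number of members was 274 in the upper 2 score quartiles and 274 without members within 1000 bp of the TSS. Without the latter, the share in the upper 2 score quartiles was 57.3%. In the upper 2 quartiles, 59.1% of members had an NFI full site, 42.7% lay within 1000 bp downstream of the TSS and 62.8% had a RefSeq TSS within 1000 bp. With no mismatch the NFI share was 7.06%, and in windows of 400 bp it was 53.9%, with 80.9% for SP. A limit of 2000 bp gave 53.9% downstream of the TSS and 78.8% with a RefSeq TSS. Curated RefSeq transcripts alone, an alternative added after the data were seen, gave 56.1%. Without the 2 near-identical members and those nearest to *Bcor*, also added later, the NFI share was 44.4%. Wider windows and limits raise a share by their construction. No value rests on separate libraries, so the spread between replicates is unknown. No paired analysis was possible because the list has no column of a single library.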

Other observations

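Exons of RefSeq or GENCODE overlapped 280 of the 538 members (52%) in any base, against 12.7% of the other intron and intergenic peaks and 81.1% of promoter island peaks. The deposited annotation places all members in introns or between genes, but it gives a single class per peak and is an unlike measure. The share was 46.2% among intergenic members and 55.1% among intron members. In the peak interval itself, 231 members held 268 NFI full sites, of which 36 were exact, and 123 of the 268 had a CG among the 5 bases between the arms.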
